A study of Mus musculus with 5 samples.

Results

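The beta cells of islets taken after birth were 1004 of the 1683 cells in the postpartum libraries and of the 4687 cells in all. A cell was taken as a beta cell where the insulin genes Ins1 and Ins2 together gave at least 20% of its transcripts and Gcg, Sst and Ppy, the hormone genes of alpha, delta and gamma cells, together gave under 1%. Of the first postpartum library (postpartum 1) 349 of 557 cells met the rule (62.7%, exact 95% interval 58.5 to 66.7), and of the second (postpartum 2) 655 of 1126 (58.2%, 55.2 to 61.1). The islets came from C57BL/6 mice in 3 groups, non-pregnant (1 library), pregnant (2) and postpartum (2). Islets were isolated and dissociated, and polyadenylated RNA of single viable cells was captured in droplets by inDrop, in which a unique molecular identifier (UMI) marks every RNA molecule. The labels give no age, day of gestation or day after birth, and do not say that libraries of a group came from separate animals, so the spread between them may be technical.

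Beta cells make insulin from its precursor, fold it in the endoplasmic reticulum, and pack it with granule proteins that prohormone convertases process. In rodents the beta cell mass expands in pregnancy under prolactin and placental lactogen. Both act through the prolactin receptor, the kinase JAK2 and the transcription factor STAT5, and they induce feedback inhibitors of the same pathway and, in mice, serotonin synthesis. Insulin secretion and beta cell mass return towards the level before pregnancy after birth.

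The cells were chosen by their measured shares of Ins1, Ins2, Gcg, Sst and Ppy, so their levels in the chosen cells are a description. The lowest insulin share inside the rule was 24.7% in postpartum 1 and 20.4% in postpartum 2, and the highest outside it, in cells that met the other limit, was 16.3% and 9.33%. Few cells lay near that threshold, with 0 and 1 between 20% and 22% and none between 18% and 20%. The limit on the other hormones did divide a continuous range, since 44 and 202 cells of at least 20% insulin were left out by it. Of these, 5 and 19 had between 1% and 1.2%, and 1 and 21 of the chosen cells had between 0.8% and 1%. No Gcg, Sst or Ppy UMI was seen in 263 and 139 of the chosen cells.

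Depth differed between the libraries. The chosen cells had a median of 249 UMIs in postpartum 1 and 615 in postpartum 2, against 2898.5 in the non-pregnant library, 611 in the first pregnant library (pregnant 1) and 87 in the second (pregnant 2). Of all genes other than the hormones they held 34241 and 142657 UMIs in the postpartum libraries and 3176 in pregnant 2, which has 69 cells of the rule and stands apart from the rest, so results that rest on it are also given without it. Levels below are the mean over cells of CPM, counts per 1000000 of these non-hormone UMIs. UMIs count molecules, so genes are compared without dividing by length. No UMI in a library allows a level from pooled UMIs of up to 87.6 CPM in postpartum 1 and 21.0 in postpartum 2. For the other libraries that limit is 6.53 (non-pregnant), 16.8 (pregnant 1) and 945 CPM (pregnant 2). A mean over cells can exceed it, since 1 UMI weighs more in a shallow cell. These limits and all intervals cover counting error only. Each cell carries only a number in the files, so barcodes shared between libraries could not be counted, but no cell had the same UMIs for every gene in both postpartum libraries.

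Most islet cell marker genes that the rule did not use went with the label. Apart from Ins1 and Ins2, all 12 measured genes of a beta cell list had UMIs in both libraries. Of them 10 and 11 were higher than in alpha cells of the same libraries, which are 86 and 121 cells with at least 10% Gcg and under 5% insulin. The list includes Prlr, Fmo1, Enpp2 and Mafa, markers chosen for these cells with the data known, so these genes are no independent support. Apart from Gcg, the summed level of 6 alpha cell markers was 948 and 1091 CPM, with 3 and 2 of them at 0, against 68375 and 70704 in the alpha cells. Delta cell markers apart from Sst summed to 148 and 97.1 CPM, and gamma cell markers apart from Ppy to 782 and 2152. Of 11 acinar genes 10 were at 0 in postpartum 1, with a sum of 24.9 CPM, and 1 was at 0 in postpartum 2, with a sum of 597. The alpha cells had acinar sums of 239 and 103 CPM, and 0 and 10 acinar genes were higher in the chosen cells. Endothelial markers summed to 185 and 96.0 CPM, macrophage markers to 487 and 318, ductal markers to 552 and 1031, and mesenchymal markers to 41.5 and 247. Higher than in alpha cells were 3 and 4 of 5 endothelial, 4 and 4 of 5 macrophage, 0 and 0 of 4 ductal and 1 and 1 of 2 mesenchymal genes. The Scrublet doublet caller marked 6 and 0 of the chosen cells, and 0.0888% of all postpartum 2 cells, which is too few for its calls there to be relied on.

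Insulin RNA was the largest part of the RNA of these cells, and Ins2 the larger part of insulin RNA. Ins2 gave 31.7% ± 5.69 of the UMIs of a cell in postpartum 1 (mean and SD between 349 cells) and 40.2% ± 6.62 in postpartum 2 (655 cells). Ins1, the retrogene copy found in rats and mice, gave 15.2% ± 4.77 and 16.8% ± 4.54. Together they made up 46.9% ± 7.55 and 57.0% ± 8.42, against means of 29.7% in the non-pregnant library, 37.0% in pregnant 1 and 45.2% in pregnant 2. The insulin share also chose the cells, so this comparison is a description. In those libraries 25, 14 and 6 chosen cells lay between 20% and 22% insulin. Of their cells with at least 20% insulin, the limit on other hormones left out 214 of 488, 1042 of 1619 and 10 of 79. Iapp encodes amylin, a peptide secreted with insulin from the same granules. Its share was lower in the second postpartum library, at 8.06% ± 3.96 in postpartum 1 and 3.15% ± 2.25 in postpartum 2, with 6.38%, 4.88% and 2.91% in the other 3.

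**Figure D1:**
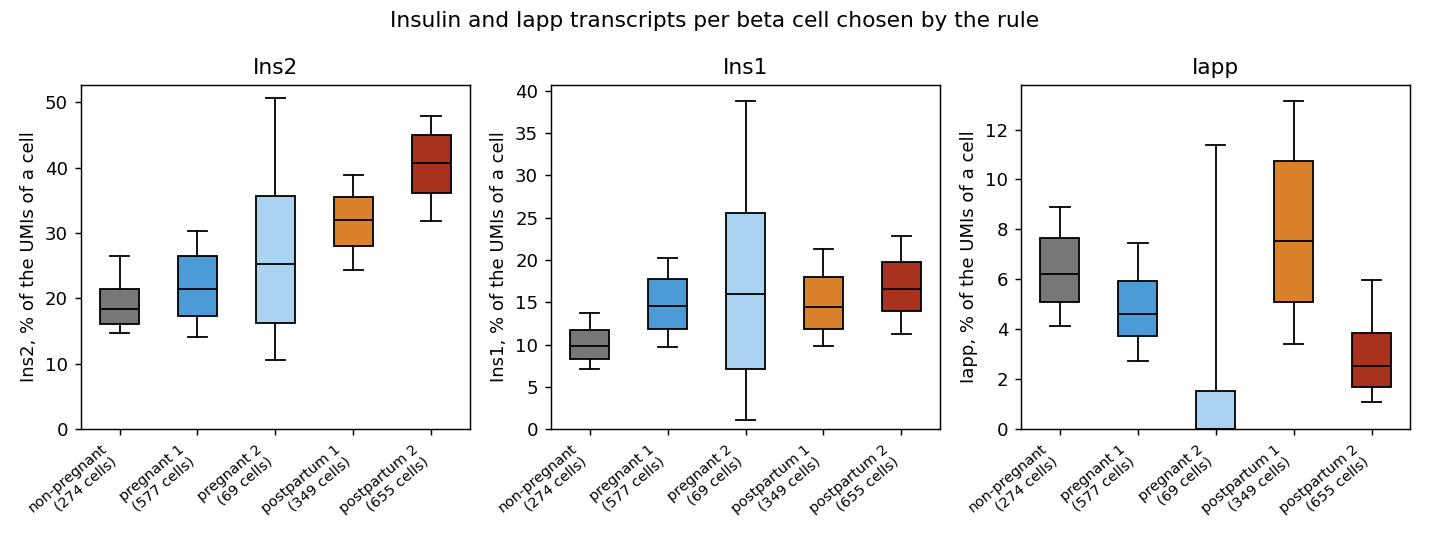
Share of the UMIs of each cell (vertical axis, percent) taken by Ins2, Ins1 and Iapp in the chosen cells of each library; boxes span the quartiles, the line is the median and whiskers run from the 10th to the 90th percentile of cells. The median Ins2 share is higher in both postpartum libraries than in the other 3, in cells chosen by their insulin share. The Ins2 box of pregnant 2 ends at 35.7% and overlaps that of postpartum 1, which starts at 27.9%. Between the postpartum libraries, the median of Ins2 is higher and that of Iapp lower in postpartum 2.

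The balance between the peptide genes also varied from cell to cell. Ins2 made up 67.2% and 68.9% of all insulin UMIs in the postpartum libraries, against 64.9%, 59.2% and 60.9% in the non-pregnant, pregnant 1 and pregnant 2 libraries. In single cells the Ins2 part ran from 58.2% at the 10th percentile to 77.2% at the 90th in postpartum 1, and from 63.0% to 78.4% in postpartum 2. The variance of the Ins2 part was 3.25 and 7.87 times that of binomial counting at each cell's insulin UMIs, whose median was 112 and 356. Iapp as a part of Iapp plus Ins2 varied more, at 5.25 and 8.90 times binomial counting, around 19.1% in postpartum 1 and 6.25% in postpartum 2. The excess was larger in the deeper library for both ratios, and a ratio to counting error grows with the counts per cell, so the libraries' values cannot be ranked.

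Apart from the hormones, the most abundant RNAs of the postpartum beta cells included granule genes, chaperones of secreted proteins, Ubb, long noncoding RNAs and the prolactin receptor. The highest was Chga, encoding the granule protein chromogranin A, at 18179 and 18139 CPM in postpartum 1 and 2. Scg2, which encodes secretogranin II, stood at 12634 and 11155 CPM and Chgb, chromogranin B, at 7221 and 6741. All 3 were higher here than in the alpha cells of the same libraries, which had 8462 and 10546 CPM of Chga, 1105 and 1432 of Scg2 and 760.4 and 563 of Chgb. The prohormone convertase gene Pcsk2 had 11759 and 14650 CPM and lay below the alpha cells' 21857 and 27149. Pcsk1, the convertase that makes the first cut in proinsulin, had 2535 and 1986 CPM against no UMI in alpha cells of either library.

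Ubb, which encodes a chain of ubiquitin units, had 10817 and 12255 CPM, and alpha cells had 12797 and 12509.7. The ubiquitin genes share near-identical sequence, and how reads were divided among them is not given in the sources used here, so the level of Ubb is uncertain. Hspa5, the main chaperone of the endoplasmic reticulum, had 7801 and 7399 CPM, Hsp90b1, another chaperone of that compartment, 2335 and 3472, and Ero1lb, the oxidase that drives disulphide bond formation in proinsulin, 3061 and 3243. In alpha cells Ero1lb was at 0 and 75.5 CPM. G6pc2, an islet glucose-6-phosphatase that opposes glucokinase, had 3062 and 3145 CPM against 134 and 0 in alpha cells.

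The long noncoding RNAs Malat1 and Meg3 were among the 20 highest with 9003 and 10826 and 5421 and 6643 CPM, and both were higher in alpha cells, at 17647 and 19858 and 8238 and 9786. So was Gnas, the stimulatory G protein subunit that raises cAMP, at 3339.5 and 3426 CPM in beta and 9103 and 14589.8 in alpha cells. Ccnd2, the D-type cyclin that beta cells need to enter the cell cycle, had 4216 and 3635 CPM and alpha cells had as much (4850 and 4806). Others of the 20 were Eef1a1, a translation elongation factor, at 3736 and 3699, Camk2n1, an inhibitor of calmodulin kinase II, at 2531 and 4334, Actb, cytoplasmic actin, at 3254 and 2417, and Tceal9, at 4072 and 3453. Prlr and Enpp2 were also in this set and are described next.

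Prlr, the prolactin receptor gene (chromosome 15, 10177238 to 10349180, plus strand, GRCm38), was the seventh highest non-hormone gene of these cells. The promoter of 1 of its 3 annotated starts carries a sequence form that STAT5, which the receptor itself activates, is known to bind. It is a TTC and a GAA with any 3 bases between, written TTCNNNGAA. The 250 bases before each annotated start were searched, and since this form reads the same on the other strand, 1 search covers both strands. Of all 32851 RefSeq promoters of this length 7.02% hold it, as do 8.13% of the 27025 genes in any of their promoters. Of the lactogen list below 17 genes have a promoter there and 4 hold the form, namely Prlr, Ivd, Socs3 and Wipi1. Fmo1, Enpp2 and Mafa have no entry. Shown are the window of the second of 3 Prlr starts (chr15:10223656-10223905, plus strand) and the match with its flanks for Ivd (chr2:118861896-118861924, plus strand) and Socs3 (chr11:117969502-117969530, minus strand), from RefSeq on GRCm38.p6 and read 5′ to 3′, because they show where in these promoters the form lies. Capitals mark it.
Prlr: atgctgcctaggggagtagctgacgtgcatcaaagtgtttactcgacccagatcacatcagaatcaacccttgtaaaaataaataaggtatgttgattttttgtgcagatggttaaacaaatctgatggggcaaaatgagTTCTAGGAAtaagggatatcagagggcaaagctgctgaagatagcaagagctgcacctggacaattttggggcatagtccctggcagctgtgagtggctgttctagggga
Ivd: ttcggctggcTTCCGAGAAcgattggcta
Socs3: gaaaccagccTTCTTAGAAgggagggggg
The form begins 110 bases before the start in Prlr, 88 in Ivd and 154 in Socs3. Each is a RefSeq start that lies inside the gene as the GENCODE annotation places it. The bases after the Prlr and Socs3 starts were not found in GENCODE transcripts, whereas those after the Ivd start were. The other Prlr starts and the Cish promoter held no match in this window. A match is a description of the letters, not evidence of binding.

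Prlr had 6905 and 7435 CPM in postpartum 1 and 2 (mean 7169.9 ± 375, SD, n = 2), from 225 and 1068 UMIs. The other libraries had 1362 (non-pregnant), 2003 (pregnant 1) and 2448 CPM (pregnant 2, from 6 UMIs). Both postpartum libraries lay above all 3 others. The ratio of postpartum 2 to postpartum 1, from pooled UMIs and with its exact 95% interval, was 1.14, interval 0.986 to 1.32, within counting error of equality. Alpha cells of the same libraries had 0 and 44.3 CPM.

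Enpp2 (chromosome 15, 54838901 to 54952892, minus strand) encodes autotaxin, the secreted enzyme that makes lysophosphatidic acid. It had 2469 and 3036 CPM after birth, 416 in the non-pregnant library, 723 in pregnant 1 and no UMI in pregnant 2. Fmo1 (chromosome 1, 162829561 to 162866610, minus strand), a flavin-containing monooxygenase, had 756 and 1838, 53.4, 171 and 0 CPM in the same order. Both genes were higher in the postpartum libraries than in the non-pregnant and pregnant 1 libraries. No UMI in pregnant 2 allows up to 945 CPM from pooled UMIs, and a mean over cells can be higher. Neither gene is therefore shown to be separate from that library. Alpha cells had 0 and 91.8 CPM of Enpp2 and 93.8 and 110.5 of Fmo1. The interval of Enpp2 also held equality (ratio 1.23, interval 0.969 to 1.57), whereas Fmo1 was higher in postpartum 2 (ratio 2.22, interval 1.52 to 3.36). Mafa (chromosome 15, 75745490 to 75748228, minus strand), the transcription factor of mature beta cells that drives the insulin promoter, had 1853 and 1374 CPM after birth, 1272 in pregnant 1, 783 in pregnant 2 (2 UMIs) and 3.50 in the non-pregnant library (1 UMI), with 122 and 67.8 in alpha cells.

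With each cell reduced to 60 non-hormone UMIs, which leaves out 70 and 14 shallower beta cells, Prlr had a UMI in 31.4% and 33.8% of cells, where a Poisson spread of the same mean would give 32.1% and 35.8%. Without that reduction the shares were 43.3% and 66.6%, as the libraries' depths differ. Alpha cells, whose median depth of 245 and 658 UMIs was close to that of the beta cells, had 0% and 0.266% of 82 and 121 cells, and 0 of 82 cells allows up to 3.66%. Enpp2 had a UMI in 12.8% and 15.6% of beta cells at that depth, Fmo1 in 4.22% and 9.22%, Mafa in 10.5% and 7.72% and Ivd in 4.55% and 6.21%. A Poisson spread would give 13.9% and 16.7% for Enpp2, 4.73% and 10.4% for Fmo1, 11.3% and 8.08% for Mafa and 4.61% and 6.46% for Ivd. The alpha cells had 0% and 0.529% for Enpp2, 0.590% and 0.663% for Fmo1, 0.770% and 0.407% for Mafa and 0.610% and 0.630% for Ivd. Unreduced shares in beta cells were 18.1% and 38.3% for Enpp2, 6.88% and 23.7% for Fmo1 and 14.6% and 21.2% for Mafa.

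Few genes were shown to differ by more than 2-fold between the postpartum libraries. Of 2103 genes with at least 20 UMIs over both, the exact 95% interval of the ratio lay wholly above 2 for 9 (0.428%) and wholly below 1/2 for 2 (0.0951%), or 0.523% in all. The interval excluded equality for 283 genes (13.5%), 136 higher in postpartum 2 and 147 higher in postpartum 1. For most genes the counts are too few to bound the ratio closely: the interval lay within 1/2 to 2 for 186 genes (8.84%). Of the 19 genes with at least 100 UMIs in each library, 17 were within those bounds, with ratios from 0.516 to 1.24. Across genes the log2 levels correlated with r = 0.795, a description in which both libraries share the low counts of most genes.

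**Figure D2:**
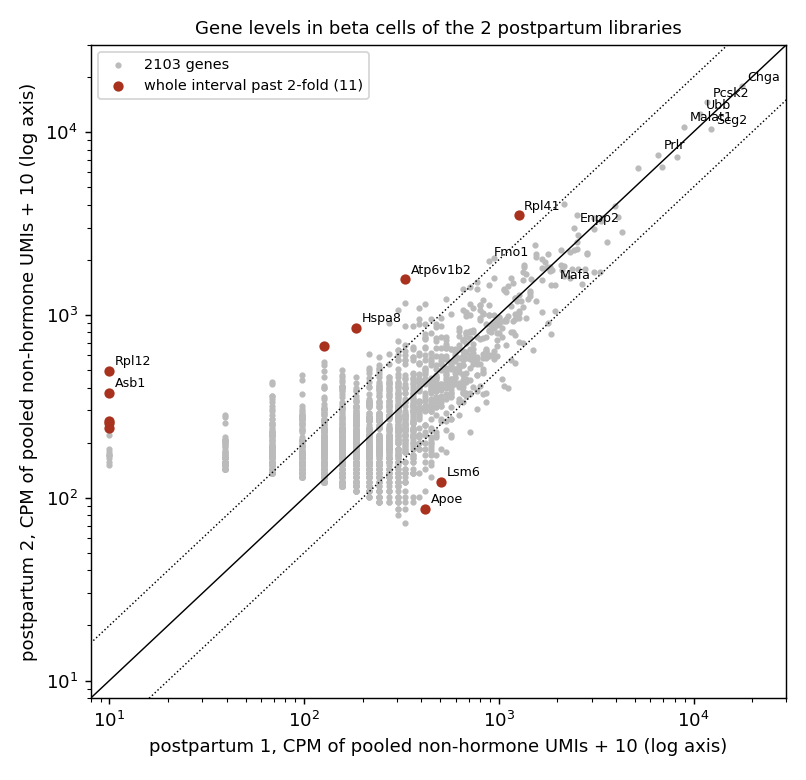
Pooled level of 2103 genes in the beta cells of postpartum 1 (horizontal) and postpartum 2 (vertical), CPM plus 10 on log axes; the solid line marks equal levels and dotted lines 2-fold differences. The 11 genes in red have an interval of the ratio wholly beyond 2-fold, 9 above and 2 below the line, and Chga, Prlr and Enpp2 lie near equality.

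The 11 genes that differed between these libraries included ribosomal, mitochondrial and stress genes and genes held by few cells. Rpl41, a ribosomal protein gene, had 43 and 499 UMIs in postpartum 1 and 2 (ratio 2.79, interval 2.04 to 3.90), Rps18 had 4 and 95 (ratio 5.70, interval 2.15 to 21.4) and Rpl12 0 and 69. Alpha cells differed the same way for Rpl41, at 901 and 2589.8 CPM. Hspa8, the constitutive cytosolic chaperone, had 6 and 120 UMIs (ratio 4.80, interval 2.14 to 13.3), and Atp5d, a subunit of the mitochondrial ATP synthase, 0 and 36. Sil1, a nucleotide exchange factor of Hspa5, had 0 and 33.

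Among other genes on that list, single cells carried much of the count of Asb1 and Ier3 but not of Atp6v1b2. Atp6v1b2, a subunit of the proton pump that acidifies granules, had 11 and 222 UMIs (ratio 4.84, interval 2.66 to 9.85), with at most 1 and 18 in 1 cell. Asb1 had 0 and 52 and Ier3, an immediate early gene, 0 and 35, each with 15 in 1 cell. The 2 genes that were lower in postpartum 2 were sparse in both. Apoe, an apolipoprotein that macrophages also make, had 14 and 11 UMIs (ratio 0.189, interval 0.0775 to 0.447), and Lsm6, of the RNA-binding Lsm ring, 17 and 16 (ratio 0.226, interval 0.107 to 0.476). The whole list of 65 measured cytosolic ribosomal protein genes summed to 16909.6 and 26216 CPM, and 3 of its 50 members deep enough to compare differed. Among the hormone genes, which stand outside that set, Iapp had a ratio of 0.420, interval 0.408 to 0.432. Whether these differences come from the animals or from the libraries cannot be told apart.

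Spread between cells was measured as the Fano factor, the variance over the mean of UMIs, which is 1 for counting alone, at 60 non-hormone UMIs a cell (279 and 641 cells). Of 115 genes with a mean of at least 0.05 UMI in both libraries, 17 (14.8%) passed the limits in both, 1.25 in postpartum 1 and 1.17 in postpartum 2, which lie 3 standard errors above 1 for that many cells. With the cell that added most left out for each gene, an alternative added after seeing the data, 7 (6.09%) passed: Chga, Gnas, Malat1, Mt2, Nfkbia, Psap and Ucn3. No p is given, since cells of a library are not replicates.

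These 7 genes differ in what they do. Mt2 encodes a metallothionein, which binds zinc and is induced by metals and stress, and had Fano factors of 2.09 and 1.38. Nfkbia, the inhibitor of NF-kappaB that NF-kappaB itself induces, had 1.75 and 1.35, and Gnas had 1.40 and 1.37. Ucn3, urocortin 3, marks mature beta cells and acts on delta cells, and had 1.35 and 1.55. Chga had 1.34 and 1.50, Malat1 1.36 and 1.65 and Psap, the precursor of lysosomal saposins, 1.49 and 1.36. Of those that lost the call without the top cell, Prkacb, a catalytic subunit of protein kinase A, had 1.75 and 1.34, which became 1.19 and 1.25 without that cell. Lars2, the mitochondrial leucyl-tRNA synthetase, went from 1.32 and 3.16 to 1.23 and 1.26, and Pcsk2 from 1.29 and 1.40 to 1.24 and 1.36. The other 7 that did so were Arf1, Fkbp1a, H2-D1, Jun, Ppia, Scg2 and Ywhae.

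**Figure D3:**
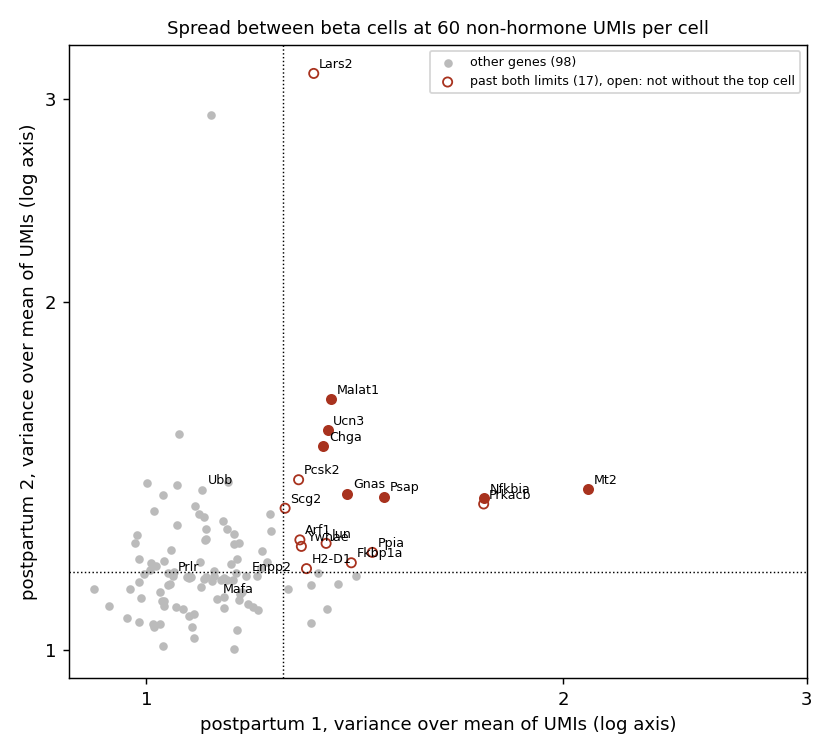
Fano factor of UMIs between beta cells, each at 60 non-hormone UMIs, in postpartum 1 (horizontal) and postpartum 2 (vertical) for 115 genes on log axes; dotted lines mark the limits of 1.25 and 1.17. The 17 genes in red pass both limits, filled for the 7 that do so without the cell that adds most, and Prlr and Enpp2 lie below both limits.

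Prlr itself had Fano factors of 1.04 and 1.16, Enpp2 1.18 and 1.16 and Mafa 1.12 and 1.11, all under both limits. Prlr and Enpp2 lay just under the limit of 1.17 in postpartum 2, so spread beyond counting is not excluded for them. Summed over whole lists, the Fano factor of the lactogen list was 1.13 and 1.17, and that of the immediate early genes 1.99 and 1.53, or 1.86 and 1.48 without the top cell of each library. At least 1 UMI of a lactogen gene was found in 65.4% and 70.7% of cells and of an immediate early gene in 44.9% and 45.3%. The granule list had 1.25 and 1.43 and the list of endoplasmic reticulum genes 1.21 and 1.28. Antioxidant genes, with the metallothioneins, had 1.62 and 1.34 and long noncoding RNAs 1.21 and 1.59. A sum of more abundant genes shows more spread for the same relative variation, so the order of lists is not read from these values.

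Beta cells after birth were then set against the same cells of the other groups with limma, on log2 of CPM plus 100, with 1 value per library. Over all 5 libraries, 1 of 2124 genes (0.0471%) was called against pregnant and 1 (0.0471%) against non-pregnant at a Benjamini-Hochberg adjusted p under 0.05, with 52 and 23 genes at an unadjusted p under 0.05. Both calls were Iapp, with log2 differences of 0.30 (adjusted p = 0.00641) and 0.35 (0.0213) in limma. Its levels were 241580 and 113862 CPM in postpartum 1 and 2, 130155 in non-pregnant, 111950 in pregnant 1 and 161680 in pregnant 2, so the groups overlapped. The error in this fit is set by a trend on the mean level, at whose far end Iapp stands alone, and with the hormone genes left out (an alternative added after seeing the data) Iapp is not tested and Chga was called against pregnant and Malat1 against non-pregnant in its place.

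Without pregnant 2, limma called 46 of 2450 genes (1.88%) against pregnant 1, 23 higher (0.939%) and 23 lower (0.939%). Against the non-pregnant library it called 143 (5.84%), 61 higher (2.49%) and 82 lower (3.35%). This fit sets 2 libraries against 1, and only the postpartum pair gives replicate error, so it assumes that the lone libraries vary like that pair. With 1 residual degree of freedom, the error of each gene was taken wholly from a trend on mean level and treated as known. Genes of like level therefore share a standard error. The standard errors and adjusted p values below do not measure variation between animals. The non-pregnant file was made in another way, with other scaling and many more features, so group and file cannot be told apart in any difference from it. The groups compared share the postpartum libraries, so the comparisons are not independent of each other. Over all 2124 genes tested, both postpartum libraries lay above both pregnant ones for 27% and below them for 6.73%. Against all 3 other libraries they lay above for 412 genes (19.4%) and below for 102 (4.8%). A gene with no UMI in pregnant 2 counts here as below the postpartum libraries, although its level there from pooled UMIs can be up to 945 CPM. Below, a value after ± is a standard error and the value in parentheses after a difference is its adjusted p, both from limma without pregnant 2 unless said otherwise, and differences are log2 of CPM plus 100. With pregnant 2 in the fit, Iapp was the only gene of 2124 called in either comparison.

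Of the genes of the lactogen pathway, some were called higher after birth, and their summed level was higher than in the other libraries. The list was chosen with these data known, and Prlr, Enpp2 and Fmo1 are also markers chosen for these cells, so its counts are a description. Of 37 genes listed 24 were measured and 15 were high enough to test. Of these, 10 lay above all 3 other libraries, beside 19.4% of all genes. Without pregnant 2, 6 of the 14 tested there were called higher and 0 lower against pregnant 1, and 5 higher and 1 lower against non-pregnant, beside 0.939% of all genes called higher in the first comparison and 2.49% in the second. Without those 3 genes, 3 of 11 tested were called higher against pregnant 1 (Cish, Ivd and Socs3, the last also in the immediate early list), and 2 higher and 1 lower against non-pregnant. The median log2 difference over the list was 1.40 and 1.22, beside -0.03 and -0.02 over all genes tested, and 1.07 and 0.81 without the 3 markers. The summed level was 19572 and 22196 CPM in the postpartum beta cells, 8122 in non-pregnant, 8225 in pregnant 1, 4908 in pregnant 2 and 8072 and 7337 in alpha cells after birth, of which Ccnd2 gave 4850 and 4806. Alpha cells of the non-pregnant and pregnant 1 libraries had 5368 and 4506 CPM. Of its 15 tested genes 11 (73.3%) were higher in beta than in alpha cells of both postpartum libraries, as were 46.8% of all 2123 tested. The sums, the 10 genes above all 3 other libraries and this comparison with alpha cells include Prlr, Enpp2 and Fmo1. The levels of these 3 markers, given above, make up much of the postpartum sums, so the sums are no separate support.

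At the receptor, Prlr rose by 1.79 ± 0.33 on the log2 scale against pregnant 1 (limma without pregnant 2, adjusted p = 1.75e-05) and by 2.31 ± 0.33 against non-pregnant (6.05e-10). The growth hormone receptor gene Ghr had 114 and 193 CPM after birth, 299.6 in non-pregnant and 215 in pregnant 1. The kinase gene Jak2 had 0 and 3 UMIs in postpartum 1 and 2, and Stat5b, of the STAT factor, had 1 and 10, both below the level tested. Of the feedback inhibitors that STAT5 induces, Cish had 359 and 579.6 CPM, 100.2 in non-pregnant, 24.4 in pregnant 1 (3 UMIs) and 878 in pregnant 2 (2 UMIs). It rose by 2.17 ± 0.47 against pregnant 1 (limma, 0.000656), although pregnant 2 lay above both postpartum libraries. Socs3 had 369.6 and 359, 110.5, 4.99 (3 UMIs) and 0 CPM and rose by 2.14 ± 0.48 (0.000908). Socs2 had 882 and 480.1, 207, 226 and 0 CPM, above the non-pregnant and pregnant 1 libraries. No UMI in pregnant 2 allows up to 945 CPM from pooled UMIs, and Socs2 was not called, with 1.21 ± 0.47.

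Among the targets, Ivd, the isovaleryl-CoA dehydrogenase of leucine breakdown, had 753 and 1143 CPM after birth, 100.1 in non-pregnant, 134 in pregnant 1 and 0 in pregnant 2. It rose by 2.14 ± 0.47 against pregnant 1 (limma without pregnant 2, adjusted p = 0.000656) and by 2.36 ± 0.47 against non-pregnant (3.15e-05). Enpp2 rose by 1.79 ± 0.41 against pregnant 1 (0.00167) and by 2.46 ± 0.41 against non-pregnant (3.48e-07), and Fmo1 by 2.25 ± 0.47 (0.000284) and 3.07 ± 0.47 (9.38e-09). Tph1, which makes serotonin from tryptophan, is known to be induced strongly by prolactin in pregnancy. It had 2 and 31 UMIs after birth, 6 in non-pregnant, 1 in pregnant 1 and 6 in pregnant 2. These counts come from 34241 and 142657, 459722, 178411 and 3176 non-hormone UMIs, so its share of pooled UMIs was highest in pregnant 2. Without pregnant 2, Tph1 was below the level tested. Ddc, the next enzyme of that synthesis, had 1318 and 1765 CPM, 834, 1076 and 0 in the same order of groups and was not called (0.47 ± 0.41, 0.86). Lrrc55, a channel subunit, had 5 and 33 UMIs after birth against 2 in non-pregnant, 1 in pregnant 1 and 0 in pregnant 2, also below the level tested. Irs2, the insulin receptor substrate, had 112 and 313 CPM in beta and 1345 and 666 in alpha cells. Ccnd2 was not called against pregnant 1 (0.43 ± 0.33, 0.821), and Wipi1, a protein of autophagy, was lower than in the non-pregnant library (-2.73 ± 0.57, 0.000101).

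Immediate early genes, which cells switch on within minutes of a stimulus and also during enzymatic dissociation, were in part higher after birth. Of 16 tested 13 lay above all 3 other libraries, beside 19.4% of all genes. Without pregnant 2, 9 of 16 were called higher against pregnant 1 (beside 0.939% of all genes) and 9 against non-pregnant (beside 2.49%), with 0 and 0 lower. Their sum was 12065 and 12462 CPM in postpartum beta cells, 2909 in non-pregnant, 2178 in pregnant 1 and 1535 in pregnant 2. Alpha cells after birth had 19360.1 and 19089.8 CPM, against 5212 and 3070.3 in alpha cells of the non-pregnant and pregnant 1 libraries, and 10 of the 16 tested genes (62.5%) were higher there than in beta cells in both libraries, against 19.6% of all genes tested. The part of dissociation in this difference was not tested.

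Jun, a subunit of the AP-1 factor, had 2271 and 2218 CPM after birth, 141 in non-pregnant, 71.8 in pregnant 1 and 0 in pregnant 2, and rose by 3.77 ± 0.45 against pregnant 1 (limma without pregnant 2, adjusted p = 4.04e-13). Fos, its partner, had 1967 and 1926, 136, 162 and 0 CPM and rose by 2.97 ± 0.45 (2.73e-08). Fosb had 846 and 1545 CPM, 16.3 in non-pregnant and no UMI in either pregnant library, so its pooled level was at least 67.7-fold and 93.8-fold higher than the level that 3 UMIs in pregnant 1 would give. At 60 non-hormone UMIs Jun had a UMI in 10.8% and 11.1% of beta cells and in 11.6% and 11.7% of alpha cells. Fosb had one in 5.11% and 7.73% of beta cells and in 10.6% and 11.9% of alpha cells. Nfkbia, which is not on this list, had 1291 and 1991 CPM, 142, 209 and 1208 (1 UMI) and differed from pregnant 1 by 2.46. Socs3, described above, is on the list. Nr4a1, an orphan nuclear receptor, Junb, Egr1, Dusp1, a phosphatase of MAP kinases, and Zfp36, which destabilises mRNA, were also called higher, by 2.38, 2.21, 1.82, 1.80 and 1.67. Btg2 (0.65, 0.788) and Ier2 (0.87, 0.594) were not.

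In the list of cytosolic heat shock and ubiquitin genes, Ubb was among the calls. Ubb had 10817 and 12255 CPM after birth, 204 in non-pregnant, 4127 in pregnant 1 and 0 in pregnant 2, and rose by 1.46 ± 0.33 against pregnant 1 (limma without pregnant 2, adjusted p = 0.000908). The HSP90 genes were not called: Hsp90ab1 had 2656 and 2567 CPM and 0.66 (0.603), and Hsp90aa1 1045 and 1353 and 0.38 (0.894). The list summed to 21877 and 24696 CPM in beta cells after birth and 25869.7 and 25065 in alpha cells, against 7157, 10364 and 10796 in the beta cells of the other libraries.

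Genes that fold and carry proteins in the endoplasmic reticulum were mostly higher in beta than in alpha cells after birth, and 1 was called against pregnant 1. Of 32 tested 25 (78.1%) were higher in beta than in alpha cells of both postpartum libraries and 1 was lower, against 46.8% and 19.6% of all genes tested. The list summed to 36551 and 36628 CPM in beta and 18967 and 15763 in alpha cells. In the other libraries' beta cells it summed to 25777 (non-pregnant), 23175 (pregnant 1) and 46304 (pregnant 2). Without pregnant 2, 1 of 34 was called higher against pregnant 1 and 3 higher and 1 lower against non-pregnant, beside 0.939% of all genes called higher in the first and 5.84% in either direction in the second. The gene called in the first was Hspa5, which had 3167 CPM in non-pregnant, 3430 in pregnant 1 and 0 in pregnant 2 and rose by 1.12 ± 0.29 (limma, 0.0111). Ero1lb had 932, 1258 and 5447 CPM there and just missed the threshold (1.26 ± 0.38, 0.0515), and it was called against non-pregnant (1.66 ± 0.38, 0.000617). Pdia6, a disulphide isomerase, had 2819 and 2208 CPM after birth and 1.11 (0.154), and Sec61b, of the protein channel of the membrane, 2628 and 2542 and 0.85 (0.417). Manf, a secreted stress factor, had 1172 and 1432 CPM, 2348 in non-pregnant and 702 in pregnant 1. The stress factor gene Ddit3 had only 2 and 10 UMIs.

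Granule genes showed 2 calls against pregnant 1 and 9 against non-pregnant. Of 20 tested without pregnant 2, 1 was called higher and 1 lower against pregnant 1, and 6 higher and 3 lower against non-pregnant, beside 1.88% and 5.84% of all genes called in either direction. The list summed to 68538 and 69935 CPM, with 50107, 53486 and 50206 in the other libraries and 59312 and 73456 in alpha cells. Chga had 9747 CPM in non-pregnant, 9306 in pregnant 1 and 5525 in pregnant 2, all below both postpartum libraries, and rose by 0.96 ± 0.21 against pregnant 1 (limma without pregnant 2, adjusted p = 0.000656). Scg2 had 5971, 7764 and 4709.9 CPM and was not called against pregnant 1 (0.61 ± 0.24, 0.255). Pcsk1 had 832, 998 and 5549 CPM (23 UMIs in pregnant 2) and was called against non-pregnant only (1.33 ± 0.40, 0.0208). The gene called lower was Cd63, a tetraspanin of granule and lysosome membranes, with 985 and 630.5 CPM after birth and 3180.2, 2141 and 5497 in the non-pregnant, pregnant 1 and pregnant 2 libraries (-1.33 ± 0.40 against pregnant 1, 0.0487). Cpe, the carboxypeptidase that trims proinsulin, had 1122 and 634 CPM, 723 in pregnant 1 and 3683 in non-pregnant, and was called lower than the last (adjusted p = 0.000102, limma without pregnant 2). Ptprn2, a granule membrane protein, had 33.1 CPM in the non-pregnant library against 1078 in pregnant 1 and 896 and 1589 after birth.

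**Figure D4:**
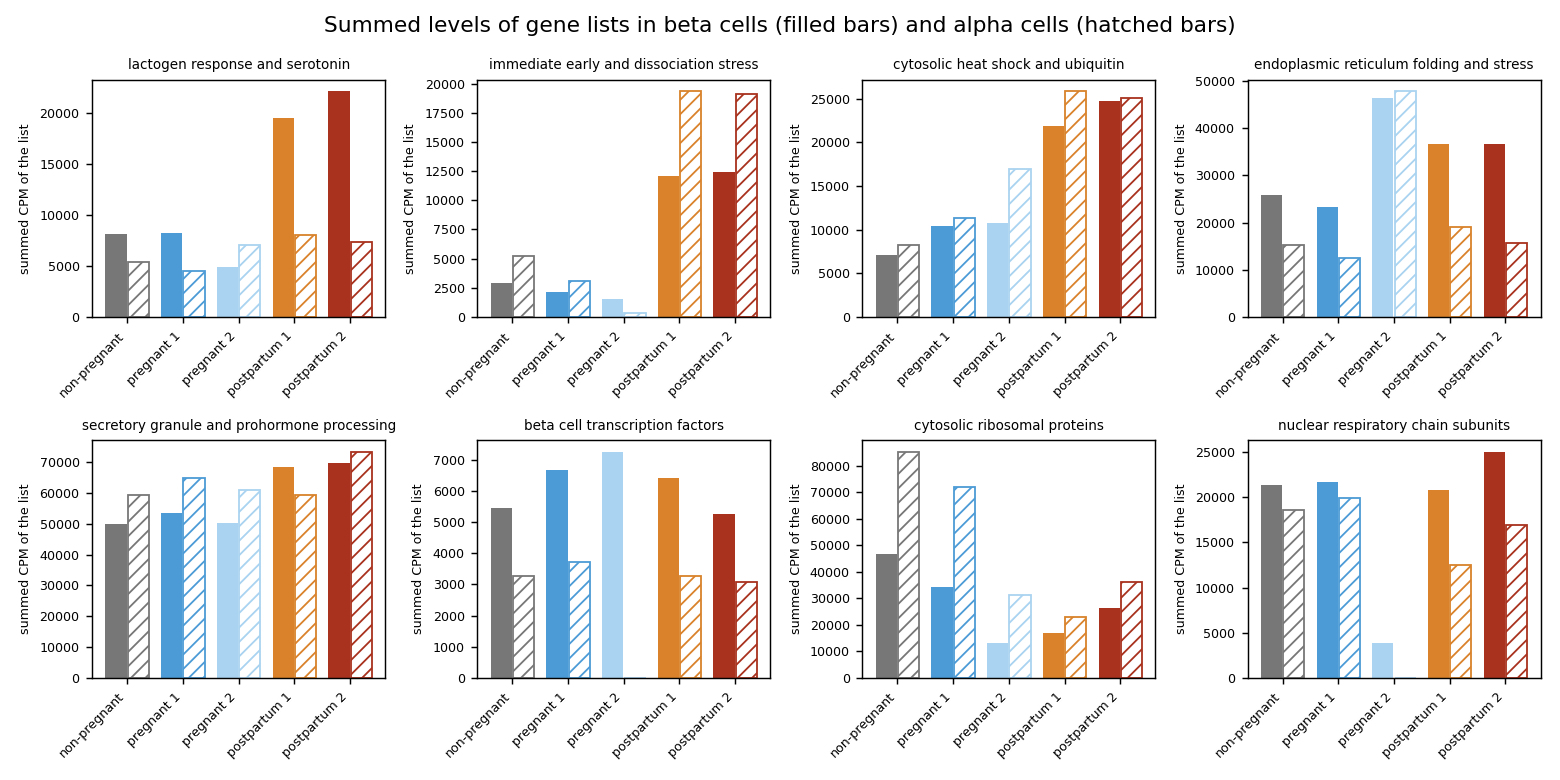
Summed level (CPM of non-hormone UMIs) of 8 gene lists in the beta cells of the 5 libraries (filled bars) and the alpha cells of the same libraries (hatched bars). The lactogen sum, which includes the markers Prlr, Enpp2 and Fmo1, is 19572 and 22196 CPM in the postpartum beta cells. In the other libraries' beta cells it is no higher than 8225. The immediate early sum is higher in alpha than in beta cells of both postpartum libraries.

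Transcription factors of beta cell identity (13 tested) and genes of glucose sensing (19) had median log2 differences from pregnant 1 of -0.17 and -0.01. These come from limma without pregnant 2, where the median over all genes tested was -0.03. Pdx1, the factor that directs pancreas formation and insulin transcription, had 302 and 188 CPM after birth, 279.6 in non-pregnant and 323 in pregnant 1, with no UMI in alpha cells of either postpartum library. Neurod1 had 1080.2 and 854 CPM, 617 and 477 in the same order, and Pax6 713 and 460.4, 891 and 557. Nkx6-1, which keeps beta cells from taking other islet fates, had 47.0 and 79.9 CPM (2 and 12 UMIs), 619 in non-pregnant and 140.4 in pregnant 1, and was lower than non-pregnant (-2.15 ± 0.48, 0.000385). Mafa was not called against pregnant 1 (0.31 ± 0.45, 0.923). Its fitted difference from the non-pregnant library (4.04) depends on the 100 CPM added, since that library holds 1 UMI.

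Slc2a2, the glucose transporter GLUT2, had 370.4 and 368 CPM after birth, 332 in non-pregnant and 282 in pregnant 1, with no UMI in the alpha cells. Abcc8 and Kcnj11, the subunits of the ATP-sensitive potassium channel, are shared with alpha cells. Abcc8 had 489.6 and 765 CPM in beta and 693 and 853 in alpha cells, and Kcnj11 had 143 and 133 and, in alpha cells, 235 and 282. G6pc2 differed from pregnant 1 by 0.24 ± 0.35 (0.923) and Ucn3 by -0.05 ± 0.39 (0.994), neither of which passed the test. Trpm5, a cation channel that adds to glucose-stimulated secretion, had 253 and 354 CPM, 117, 119.7 and 111 in the other libraries, the last from 1 UMI, and was not called (0.87 ± 0.47, 0.573).

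Genes that were lower after birth included the light chain of class I antigen presentation, metal-binding and detoxifying proteins and a lysosomal protease. B2m, which encodes beta-2 microglobulin, had 112 and 128 CPM after birth, 1748 in non-pregnant, 2237 in pregnant 1 and 878 in pregnant 2 (2 UMIs), with no overlap, and it fell against pregnant 1 (-3.41 ± 0.46, limma without pregnant 2, adjusted p = 5.44e-11). Alpha cells after birth were as low, at 171 and 145 CPM. Mt2 had 2869.7 and 1625 CPM, 3333, 6414 and 752 (-1.52 ± 0.34, 0.000728), and Mt1, another metallothionein gene, 2787 and 2243, 3737, 5624 and 12761 (-1.14 ± 0.33, 0.0323). Pregnant 2 lay below the postpartum libraries for Mt2, from 3 UMIs, and above them for Mt1. Ctsb, the protease cathepsin B, had 123 and 266, 1300.4, 840.2 and 4267 CPM (-1.72 ± 0.46, 0.0151). Ftl1, ferritin light chain, had 1166 and 1211 CPM against 4817 in pregnant 1 (-1.93 ± 0.40, 0.000257), and Gstm1, a glutathione transferase, 272 and 132 against 1188 (-2.13 ± 0.46, 0.000656). Spp1, osteopontin, which duct cells also express, had 0 and 2 UMIs after birth and 196 in pregnant 1.

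Other genes of the largest differences from both pregnant libraries were highest in pregnant 2. Tm4sf4, a tetraspanin-like membrane protein, had 299 and 249 CPM after birth, 410 in pregnant 1 and 13915 in pregnant 2 (from 27 UMIs), a log2 difference of -2.84 with that library and -0.45 without it, and Rock1, a kinase of the actin skeleton, 155 and 175, 196 and 14493 (-2.97 and -0.16). Eif1a, Zmiz1, Cirbp, Enho and Cflar showed the same pattern, and none of these 7 was called in either fit. Against the non-pregnant file the lowest included Rpl27a, Rps24 and Rpl6 of the ribosome and Serf2, H3f3a, Myl6, Camk2b and Oaz1. Of the ribosomal list 30 of 63 tested genes were lower than in that file and 5 higher (beside 3.35% and 2.49% of all genes), against 3 lower and 0 higher relative to pregnant 1 (beside 0.939% and 0.939%). Such genes have near-identical copies, and the counting behind either file is not given in the sources used here.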

How the data were processed

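Single-cell inDrop libraries of C57BL/6 islets were used: 1 non-pregnant, 2 pregnant and 2 postpartum. The authors deposited the pregnant and postpartum cells as log2 of CPM plus 1 over 6695 features, and the non-pregnant cells as a linear signal scaled to the same total in every cell over 40930 features, as the values show. Partek 8.0, Bowtie 1.1.1, GRCm38 and mm10 are named in the submitters' processing notes with no role. Which counter, annotation and filters were used is not given in the sources used here. Values were linearised and divided by the smallest value in each cell, which gave whole UMIs (100% of values within 0.1). For 9 cells of pregnant 2 the smallest value stood for several UMIs. Of the 6695 features 6543 matched the non-pregnant file by symbol and 83 by synonym, 55 were unmatched and 13 were date-like symbols. The 6626 matched genes include 7 hormone genes, which were left out of the CPM denominator, and ribosomal RNA features were left out. Whole libraries held 2561319 (non-pregnant), 1271186 (pregnant 1), 16306 (pregnant 2), 148522 (postpartum 1) and 781832 UMIs (postpartum 2), so precision is lowest in pregnant 2.

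Python 3.11.15 with numpy 2.4.6 and scipy 1.17.1 was used, scanpy 1.11.5 for Scrublet, and limma 3.58.1 in R 4.3.3 with a trended prior, on log2 of the mean CPM plus 100, for genes of at least 100 CPM on average, two-sided, with Benjamini-Hochberg adjustment over all genes tested. Scripts were tested on simulated data. Intervals are exact (Clopper-Pearson). The gene ratio between postpartum libraries used pooled UMIs, and the Fano factor the exact expectation of reducing each cell to 60 UMIs.

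The cells, marker genes and lists were chosen with earlier results of these data known. Named are the 6 markers, the 20 highest genes, the 10 most different between postpartum libraries in each direction, the 10 of most spread, the 10 of largest difference in each direction from each other group with no overlap, and list members among these or the 5 highest of each list. Other list members that are named were chosen after their values were seen. A few genes that this rule names are not reported here.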

Additional observations from a re-analysis of the deposited data

How the results depend on the processing

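The calls rest on few libraries. Against pregnant, 1 gene was called with all 5 libraries, and leaving out 1 library gave 0 to 1770 (1770 without pregnant 1, 46 without pregnant 2, 0 without postpartum 1). Against non-pregnant the count was 1, and leaving out 1 library gave 0 to 143 (136 without pregnant 1, 143 without pregnant 2, 0 without postpartum 1). The cause was not tested. Leaving out the non-pregnant library gives no comparison with it.

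Against pregnant, 10 CPM added before the log gave 2 calls. Against non-pregnant, 1000 CPM added gave 3, pooled UMIs 0 and an insulin share of at least 10% gave 2. All UMIs as the denominator, an insulin share of at least 30%, and a limit of 0.5% or 2% on other hormones each gave 0 calls in both comparisons, as did leaving out Scrublet doublets against pregnant, with 29 to 54 genes at an unadjusted p under 0.05 against pregnant and 8 to 24 against non-pregnant in limma over these settings. Cells of at least 200 UMIs, which leave 3 in pregnant 2 and so drop it, gave 41 and 121. With the hormone genes and pregnant 2 left out, chosen after seeing the data, the counts were 52 and 132.

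The labels do not say what the replicate numbers mark, and pregnant 1 and postpartum 1 deviated with a correlation of 0.0345 across genes. A replicate block over the 4 pregnant and postpartum libraries gave 0 calls (11 genes at an unadjusted p under 0.05) and the same fit without the block 1.

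The 11 genes that differed between postpartum libraries became 7 with cells of at least 200 UMIs and 6 among genes of at least 50 UMIs. The 17 genes of extra spread became 8 at 40 UMIs a cell, 37 at 100 and 7 without the top cell of each gene. A limit of 0.5% on other hormones left 318 and 548 cells, a limit of 2% took 729 in postpartum 2, and at least 200 UMIs left 242 in postpartum 1. Zmiz1 alone changed sign, to 0.23 against pregnant without Scrublet doublets. Depth limits all low genes of postpartum 1, where no UMI allows 87.6 CPM from pooled UMIs.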

Other observations

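Genes of the mitochondrial respiratory chain summed to 20761 and 25052 CPM in the postpartum beta cells, 21329 in the non-pregnant library, 21676 in pregnant 1, 3891 in pregnant 2 and 12534 and 16958 in alpha cells after birth. Over 62 tested without pregnant 2 the median log2 difference from pregnant 1 was 0.05, beside -0.03 over all genes tested. In both postpartum libraries 32 of 57 (56.1%) were higher in beta than in alpha cells, beside 46.8% of all genes tested. The 4 glycolytic genes tested had a median log2 difference of -0.68 from pregnant 1. Aldoa, an aldolase, was 1 of them, with 153 and 219.7 CPM against 833 in pregnant 1 (-1.71 ± 0.46). Over the 18 tested genes of the antioxidant list, which holds the metallothionein genes, the median difference from pregnant 1 was -0.58. Txnip, which glucose induces in beta cells, had 628 and 383 CPM, 106 in non-pregnant and 184 in pregnant 1. It differed from non-pregnant by 1.53 ± 0.47.

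Some long noncoding RNAs were higher after birth. Meg3 had 2407 CPM in the non-pregnant library, 2708 in pregnant 1 and 0 in pregnant 2, below the 5421 and 6643 of the postpartum libraries, and rose by 1.12 ± 0.32 against pregnant 1 (limma without pregnant 2, adjusted p = 0.0251). Neat1, the scaffold of nuclear paraspeckles, had 1706 and 2585 CPM, 453, 703 and 0 in the same order of groups and rose by 1.45 ± 0.42 (0.0323). Neat1 was low in the alpha cells, at 124 and 225 CPM, where Meg3 was high. Of the list 3 of 6 genes tested were called higher against non-pregnant and 0 lower, beside 2.49% of all genes called higher.

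Of the list of dividing cells 5 genes were tested, with a median log2 difference of 0.43 from pregnant 1 in limma without pregnant 2. Over all genes tested it was -0.03. The antigen presentation list, with B2m among 5 tested, had a median of -0.49.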
